A study of Mus musculus with 2 samples.

Results

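The SOX and Kruppel-like (KLF) transcription factors were examined in mammary tumors of MMTV-PyVT mice. The genes were chosen by name, as protein-coding genes of GENCODE M21 whose symbol is Sox or Klf followed by a number. The rule found 36 genes (19 SOX and 17 KLF) among the 55536 genes of the table. RNA was sequenced as 1 mammary tumor library for treatment with cyanidin-3-glucoside (C3G), an anthocyanin pigment of plants. Another 1 was for dimethyl sulfoxide (DMSO) alone, the vehicle. They are called the C3G tumor and the DMSO tumor below. Treatment started when the ducts had become hyperplastic, and tumors were collected once tumor burden had met the study's endpoint. The mice carried the PyVT transgene, polyoma virus middle T antigen under the mouse mammary tumor virus promoter, which is active in mammary epithelium. The dose of C3G and the age and strain background of the mice were not stated in the labels used here. Whether a library pooled several tumors or mice was not stated either. The comparison asks how C3G affected gene expression in these tumors.

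SOX proteins bind DNA through a high-mobility-group (HMG) domain that bends the helix, and they act with partner factors to set and hold cell identity. In the mammary epithelium SOX9 and SOX10 are known from progenitor cells, while SOX7, SOX17 and SOX18 are the endothelial group of the family. KLF proteins bind GC-rich and CACCC-like DNA through zinc fingers at the carboxyl end. They fall into a group known mainly as activators (KLF1, KLF2, KLF4, KLF5, KLF6 and KLF7) and into repressor groups that recruit the corepressors CtBP or SIN3A.

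The C3G library held 16081110 reads assigned to genes and the DMSO library 12192275, recovered from the TPM values (read density per base, with every library scaled to the same sum). With 1 library per group no value has a replicate check, no test was possible, and treatment cannot be told apart from differences between tumors or mice. Ratios are TPM in the C3G tumor over TPM in the DMSO tumor, and the 95% interval after each covers counting error only. Calls by size, higher or lower, required at least 5 TPM in either tumor and a log2 ratio of (TPM + 1) of at least 1 or at most -1. Epithelial markers were abundant, Epcam at 1399 TPM in the C3G tumor and 1484 TPM in the DMSO tumor. The keratin genes Krt8 (1420 and 1890 TPM in the C3G and DMSO tumors) and Krt18 (1769 and 2824 TPM) differed more than Epcam. In bulk tissue, fewer cells of a type and less RNA per cell cannot be told apart.

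Of the 5 members called by size, all but Sox18 had 150 bases of promoter sequence in the RefSeq table (GRCm38.p6) ahead of both the RefSeq and the GENCODE start, and these are shown as the start regions of called genes. They are written 5′ to 3′ on the strand of the gene, from chr8:72318883-72319032 (plus strand) for Klf2, chr4:55532476-55532625 (minus strand) for Klf4, chr9:99876171-99876320 (minus strand) for Sox14 and chr12:24651124-24651273 (plus strand) for Klf11. Capitals mark matches, on either strand, to GGGCGG (the GC box), CCAAT or the MEF2 site.
Klf2: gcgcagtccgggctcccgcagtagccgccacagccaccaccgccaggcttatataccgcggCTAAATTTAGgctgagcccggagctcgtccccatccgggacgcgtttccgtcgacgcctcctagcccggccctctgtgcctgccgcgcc
Klf4: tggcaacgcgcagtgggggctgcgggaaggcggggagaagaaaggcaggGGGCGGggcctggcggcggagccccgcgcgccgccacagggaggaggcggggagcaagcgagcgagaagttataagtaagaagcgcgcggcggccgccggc
Sox14: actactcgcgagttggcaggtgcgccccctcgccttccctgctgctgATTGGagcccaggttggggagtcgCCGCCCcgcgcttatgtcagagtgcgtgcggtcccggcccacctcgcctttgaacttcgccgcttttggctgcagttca
Klf11: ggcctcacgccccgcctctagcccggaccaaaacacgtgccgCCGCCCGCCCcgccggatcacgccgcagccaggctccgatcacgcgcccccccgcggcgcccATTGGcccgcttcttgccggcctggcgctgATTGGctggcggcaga

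Such windows could be cut for 19 of the 36 members and for 12360 protein-coding genes in all. A MEF2 site, the element through which MEF2 factors are known to act on Klf2 in endothelial cells, was found in the Klf2 window, beginning at base -89 from the window's end, and in no other of the 19 member windows. It was present in 1.23% of all 12360 windows. GGGCGG was found in 11 of 19 member windows and in 40.6% of all windows, CCAAT in 10 of 19 and in 29.0%, and CACCC in 8 of 19 and in 41.0%. The 2 GGGCGG matches of Klf11 overlap each other. The Klf4 and Sox14 windows held 1 GGGCGG match each. ACAAT, a core of SOX binding sites, was found in 2 of 19 member windows and in 13.6% of all. None of the 19 windows held TGACTCA (2.59% of all windows), TGACGTCA (1.95%), TATAAA (6.67%) or the SRF CArG box (0.89%). These are matches of letters and not measured binding.

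Klf2 and Klf4 were the 2 KLF genes lower by size in the C3G tumor, Klf11 was the 1 KLF gene higher, Sox14 was the 1 SOX gene lower, and Sox18 the 1 SOX gene higher. Of the 36 members, 19 reached 5 TPM in either tumor and 17 did not. Of the 19, 2 (10.5%) were higher by size, against 3.10% of the 12780 genes of any kind at that level, and 3 (15.8%) were lower, against 4.30%. Over the 11005 protein-coding genes at that level the shares were 1.80% and 1.64%. Centring the ratios at the median gene, among genes averaging at least 10 TPM, moves all log2 ratios by 0.12, and Sox18 alone was then higher, with Klf2, Klf4 and Sox14 still lower. The median log2 ratio was -0.00 over the 27 members with a mean of at least 1 TPM, 0.01 over 13 SOX and -0.06 over 14 KLF genes, against 0.10 over all 17468 genes at that level.

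**Figure D1:**
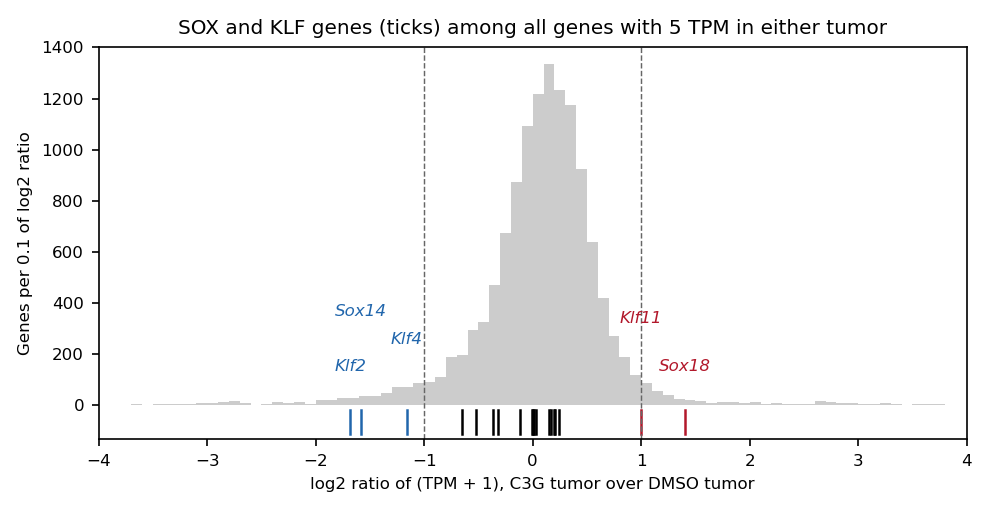
Grey bars count all 12780 genes with at least 5 TPM in either tumor by log2 ratio of (TPM + 1), C3G over DMSO, and ticks below mark the 19 SOX and KLF genes at that level. Klf2, Sox14 and Klf4 lie below the dashed line at -1, Klf11 lies on the line at 1 and Sox18 beyond it, while the other 14 lie between -0.65 and 0.24.

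The activator group held the members with the widest differences in level. Klf2, a flow-responsive factor of endothelium that also keeps T cells quiescent, stood at 62.2 TPM in the C3G tumor and 201.7 TPM in the DMSO tumor, from 631 and 1615 reads. It was 3.24-fold lower (2.96 to 3.56), with a log2 ratio of -1.68. In the DMSO tumor 589 protein-coding genes had a higher TPM than Klf2, and in the C3G tumor 2338 did.

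Klf4, a factor of epithelial differentiation and one of the reprogramming factors, stood at 89.2 TPM in the C3G tumor and 200.9 TPM in the DMSO tumor, 2.25-fold lower (2.11 to 2.40). Klf2 and Klf4 were thus at nearly the same level in the DMSO tumor but not in the C3G tumor, where Klf4 was the more abundant. Klf6, an early response gene widely expressed in epithelium and stroma, was the most abundant of all 36 members in both tumors. It stood at 466.0 TPM in the C3G tumor and 667.2 TPM in the DMSO tumor, 1.43-fold lower (1.40 to 1.47), which fell short of the call. Klf5, a factor of proliferating epithelium, stood at 34.5 TPM in the C3G tumor and 43.3 TPM in the DMSO tumor, a ratio of 0.798 (0.730 to 0.873).

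Klf7, known from neurons and fat precursors, stood at 16.7 and 16.8 TPM in the C3G and DMSO tumors, a ratio of 0.994 (0.891 to 1.11). Klf7 shares 39.4% of its exon length with other annotated genes, so its level is uncertain. Klf1, the erythroid KLF, had 10 reads in each library (1.19 TPM in the C3G tumor and 1.51 TPM in the DMSO tumor). All 6 activators had log2 ratios below 0, and their summed level was 669.8 TPM in the C3G tumor and 1131 TPM in the DMSO tumor.

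**Figure D2:**
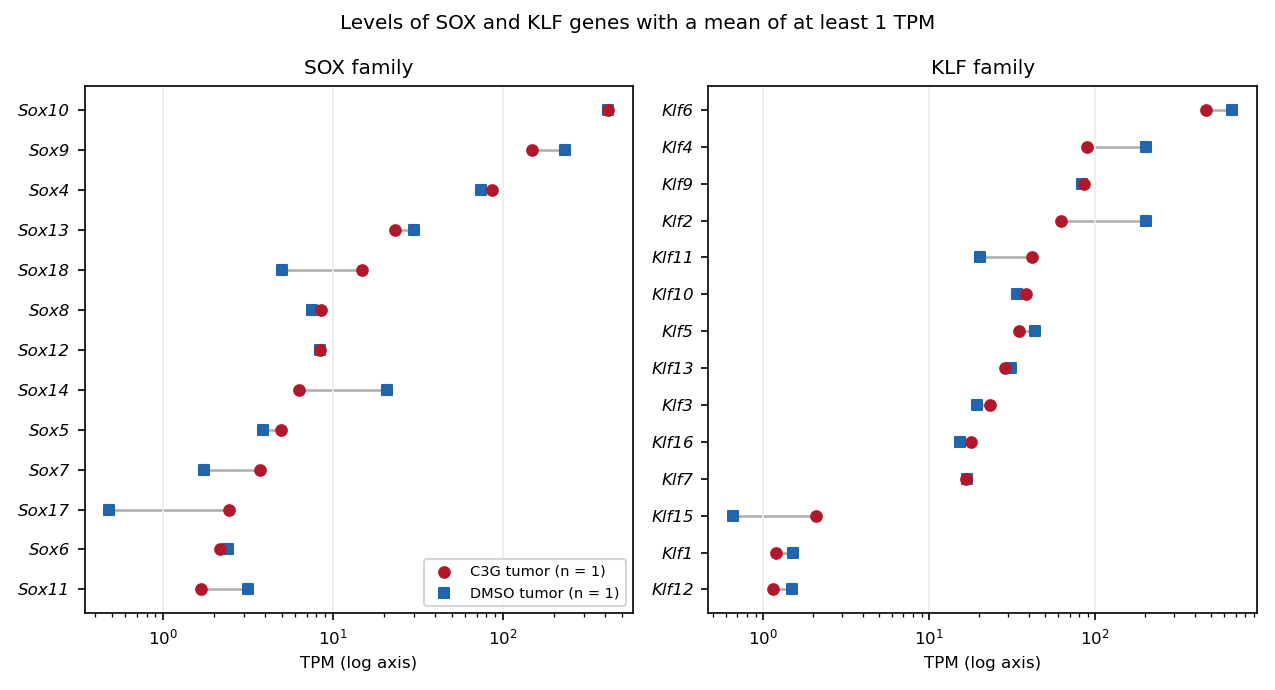
Each row is a SOX (left) or KLF (right) gene with a mean of at least 1 TPM, with its TPM on a log axis in the C3G tumor (circle) and the DMSO tumor (square), 1 library each. Sox10 and Klf6 are the most abundant members of their families in both tumors, and the widest gaps among genes above 50 TPM are those of Klf2 and Klf4.

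In the repressor groups Klf11 was the only gene called. Klf11, a SIN3A-binding factor induced by TGF-beta, stood at 41.7 TPM in the C3G tumor and 20.3 TPM in the DMSO tumor, from 995 and 382 reads. Its ratio was 2.06 (1.82 to 2.32). The log2 ratio of 1.00 lay at the threshold, and centring or removal of the trend with gene length took it below. Klf10, the other TGF-beta induced member of this group, stood at 38.2 TPM in the C3G tumor and 33.9 TPM in the DMSO tumor, a ratio of 1.13 (1.02 to 1.25).

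Klf9, a target of glucocorticoid and thyroid hormone receptors, stood at 85.2 TPM in the C3G tumor and 83.4 TPM in the DMSO tumor, a ratio of 1.02 (0.959 to 1.09). Klf13 stood at 28.5 and 31.1 TPM in the C3G and DMSO tumors, and Klf16 at 17.8 and 15.4 TPM, 2 further SIN3A-binding members of which neither was called. Klf14, the last of that group, had no read in the C3G library and 1 in the DMSO library. Summed, the 6 SIN3A-binding genes stood at 211.4 TPM in the C3G tumor and 184.1 TPM in the DMSO tumor.

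Among the CtBP-binding members, Klf3, a repressor active in fat and blood cells, stood at 23.1 TPM in the C3G tumor and 19.4 TPM in the DMSO tumor, a ratio of 1.19 (1.10 to 1.29). Klf8 (0.944 and 0.487 TPM in the C3G and DMSO tumors) and Klf12 (1.15 and 1.49 TPM) were low, and their intervals included 1. Klf15, which acts in fat, muscle and liver metabolism and belongs to none of these groups, stood at 2.09 TPM in the C3G tumor and 0.661 TPM in the DMSO tumor, from 32 and 8 reads, a ratio of 3.16 (1.42 to 7.93). Fat cell markers were higher in the same tumor, at a summed 1439 TPM in the C3G tumor and 286.3 TPM in the DMSO tumor over 10 genes. Of the 9 that reached 5 TPM, 8 were higher by size, against 3.10% of all genes at that level. Cidec, Plin1, Retn and Pparg reached it in the C3G tumor only. The part of fat cells in the Klf15 value was not tested. Klf17 had no read in either library, which at 3 reads allows up to 0.228 TPM in the C3G tumor and 0.288 TPM in the DMSO tumor.

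The 17 KLF genes summed to 908.5 TPM in the C3G tumor and 1338 TPM in the DMSO tumor. Klf6 took 51.3% of the pool in the C3G tumor and 49.9% in the DMSO tumor. Klf2 took 6.84% in the C3G tumor and 15.1% in the DMSO tumor, and Klf4 9.82% and 15.0%. Without Klf2, Klf4 and Klf6 the other 14 genes summed to 291.2 TPM in the C3G tumor and 267.8 TPM in the DMSO tumor.

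**Figure D3:**
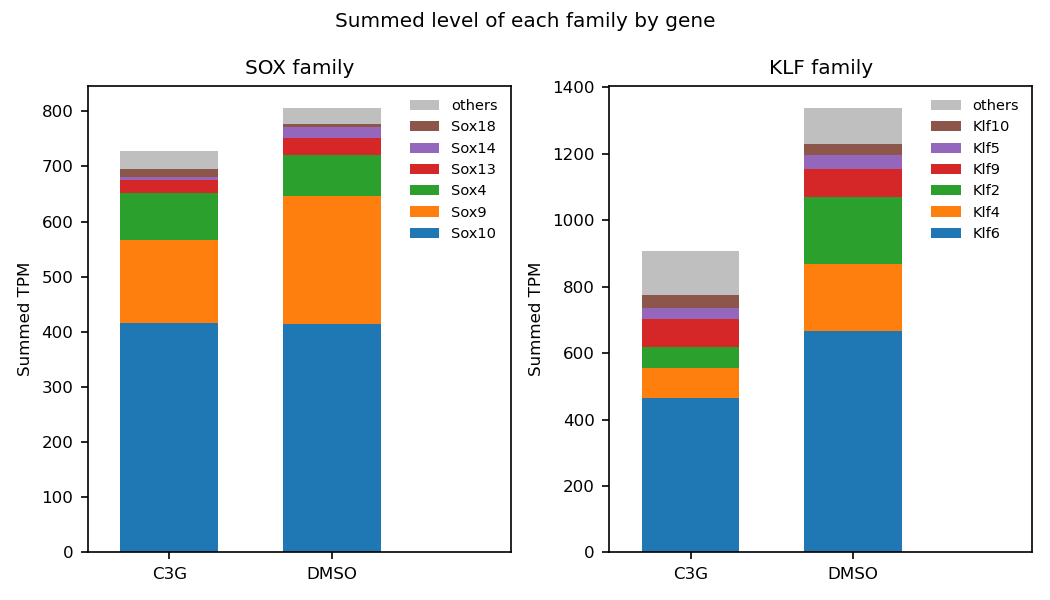
Bars give the summed TPM of the SOX (left) and KLF (right) genes in the C3G tumor and the DMSO tumor, 1 library each, with the 6 most abundant genes of each family coloured and the others in grey. The KLF sum is 908.5 TPM in the C3G tumor and 1338 TPM in the DMSO tumor, while Sox10, the largest part of the SOX sum, is nearly the same in both.

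Group E dominated the SOX family. Sox10, a factor of neural crest and of mammary progenitor and basal cells, stood at 416.9 TPM in the C3G tumor and 413.5 TPM in the DMSO tumor, from 6990 and 5470 reads. Its ratio was 1.01 (0.973 to 1.04), and its log2 ratio of 0.01 became -0.11 when ratios were centred. Only 237 protein-coding genes had a higher TPM in the C3G tumor and 259 in the DMSO tumor.

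Sox9, a factor of luminal progenitors and of cartilage, stood at 148.8 TPM in the C3G tumor and 233.3 TPM in the DMSO tumor, 1.57-fold lower (1.50 to 1.64) and short of the call. The ratio of Sox9 to Sox10 was 0.357 in the C3G tumor and 0.564 in the DMSO tumor. Sox8, the least abundant of the group, stood at 8.46 TPM in the C3G tumor and 7.55 TPM in the DMSO tumor, a ratio of 1.12 (0.865 to 1.46). Sox9 and Sox10 together made up 77.7% of the summed SOX level in the C3G tumor and 80.3% in the DMSO tumor.

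Genes that accompany group E in other tissues were mostly low. Of 11 Schwann cell and melanocyte genes, where SOX10 is a defining factor, none was called and 8 stayed under 5 TPM. The most abundant were S100b (31.9 and 41.8 TPM in the C3G and DMSO tumors) and the myelin gene Mbp (14.5 and 12.0 TPM). The melanocyte enzyme genes Tyr and Dct had at most 1 read. Of 11 cartilage genes known as SOX9 targets or companions, 8 were under 5 TPM, including the defining genes Col2a1 and Acan, which had at most 10 reads. The collagen IX genes were abundant all the same. Col9a1 stood at 230.4 TPM in the C3G tumor and 109.3 TPM in the DMSO tumor and was higher by size, while Col9a2 (157.5 and 164.3 TPM) and Col9a3 (83.1 and 69.1 TPM) were not called. Over all genes with at least 5 TPM in either tumor, 3.10% were higher by size.

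Luminal progenitor genes, a list of 5, had none called and a median log2 ratio of -0.03. Elf5, a factor of the milk-producing lineage, stood at 234.7 TPM in the C3G tumor and 221.9 TPM in the DMSO tumor, and the receptor gene Kit at 103.5 and 105.6 TPM. The retinaldehyde dehydrogenase gene Aldh1a3 stood at 16.2 TPM in the C3G tumor and 24.2 TPM in the DMSO tumor, a ratio of 0.670 (0.586 to 0.766), and lactoferrin, Ltf, at 623.6 and 821.9 TPM, a ratio of 0.759 (0.740 to 0.778). All 9 basal and myoepithelial genes reached 5 TPM. Of the 9, 4 were lower by size, against 4.30% of all genes at that level. They were the contractile genes Cnn1, Myh11, Acta2 and Mylk. The list had 7 of 9 log2 ratios below 0, a median of -0.65 and a summed level of 614.1 TPM in the C3G tumor and 1195 TPM in the DMSO tumor. Of the 5 genes not called, Krt17 (20.8 TPM in the C3G tumor and 33.2 TPM in the DMSO tumor), Oxtr (27.7 and 39.5 TPM) and Krt14 (66.0 and 83.7 TPM) had ratios below 1, and Krt5 (48.4 and 36.2 TPM) and Trp63 (14.9 and 11.9 TPM) above 1. Of 9 luminal genes 7 reached 5 TPM, and 2 of these were lower by size, against 4.30% of all genes at that level. They were Krt19 (246.1 TPM in the C3G tumor and 677.7 TPM in the DMSO tumor) and Foxa1 (7.49 and 19.2 TPM). Krt18 (1769 and 2824 TPM) and Gata3 (238.7 and 364.7 TPM) were not called, and 8 of the 9 log2 ratios were below 0.

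Group F, the endothelial SOX genes, stood higher in the C3G tumor in all 3 members. Sox18, a factor of blood and lymphatic vessel development, stood at 14.8 TPM in the C3G tumor and 4.98 TPM in the DMSO tumor, from 132 and 35 reads, a ratio of 2.98 (2.04 to 4.45). Sox17, a factor of arterial endothelium and endoderm, stood at 2.44 TPM in the C3G tumor and 0.483 TPM in the DMSO tumor, from 64 and 10 reads, a ratio of 5.05 (2.58 to 11.0). Sox7 stood at 3.70 TPM in the C3G tumor and 1.75 TPM in the DMSO tumor, a ratio of 2.11 (1.32 to 3.49).

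All 3 intervals lay above 1, but Sox17 and Sox7 stayed under 5 TPM and could not be called. Sox18 reached 5 TPM in the C3G tumor only, so its call could only be higher. With no filter on low values Sox17 was called as well. The 3 genes summed to 21.0 TPM in the C3G tumor and 7.21 TPM in the DMSO tumor, a ratio of 2.91. Sox17 shares 16.8% of its exon length with another annotated gene.

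Most endothelial markers were higher in the same tumor. Of 15, 13 reached 5 TPM. Among these, 5 were higher by size and none lower, against 3.10% and 4.30% of all genes at that level. The list had 14 log2 ratios above 0, 1 below and a median of 0.94. Flt1 was the 1 below, at 3.96 TPM in the C3G tumor and 4.32 TPM in the DMSO tumor, a ratio of 0.917 (0.772 to 1.09). The ratio of Erg was 1.28, with an interval that included 1 (0.924 to 1.78). The summed level of the list was 152.6 TPM in the C3G tumor and 71.8 TPM in the DMSO tumor, a ratio of 2.13. The 5 called were the junction gene Cldn5 (11.95 TPM in the C3G tumor and 2.93 TPM in the DMSO tumor), Tie1 (8.81 and 2.30 TPM), Pecam1 (18.2 and 6.56 TPM), Tek (5.68 and 1.86 TPM) and Cdh5 (17.8 and 7.52 TPM). Cldn5, Tie1 and Tek reached 5 TPM in the C3G tumor only, so a call could only be higher. The part of endothelial cells in the group F values was not tested. Of 6 lymphatic genes only Pdpn reached 5 TPM, at 43.3 TPM in the C3G tumor and 63.6 TPM in the DMSO tumor, and it was not called. The median log2 ratio of the 4 with a mean of at least 1 TPM was -0.72. The hyaluronan receptor gene Lyve1 had 12 reads in the C3G library and 34 in the DMSO library, 3.59-fold lower (1.81 to 7.62). Reln had 72 and 194 reads in the C3G and DMSO libraries, 3.41-fold lower (2.59 to 4.54), and Ccl21a had no read in the C3G library and 5 in the DMSO library. Prox1, a lymphatic factor that SOX18 is known to activate, stood at 1.15 TPM in the C3G tumor and 1.02 TPM in the DMSO tumor.

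Klf2 and Klf4, also factors of endothelium, were lower in the tumor in which most of the endothelial markers were higher. Of 6 genes known as their endothelial targets, 2 stayed under 5 TPM. Of the 4 others, 1 was not called and 3 were higher by size, against 3.10% of all genes at that level. Those higher were the water channel Aqp1 (71.8 TPM in the C3G tumor and 24.6 TPM in the DMSO tumor), the sphingosine receptor S1pr1 (15.5 and 6.28 TPM) and thrombomodulin, Thbd (9.92 and 3.84 TPM). Thbd reached 5 TPM in the C3G tumor only, so its call could only be higher. Nos3, the endothelial nitric oxide synthase, stood at 2.51 TPM in the C3G tumor and 0.781 TPM in the DMSO tumor. The matrix protease gene Adamts4 stood at 1.82 TPM in the C3G tumor and 2.88 TPM in the DMSO tumor, a ratio of 0.631 (0.423 to 0.938), and Adamts5 at 5.95 and 6.31 TPM in the C3G and DMSO tumors. The parts of endothelial cells and of Klf2 and Klf4 in these target values were not tested.

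T cell markers were lower in the C3G tumor, with a summed level of 16.1 TPM in the C3G tumor and 53.8 TPM in the DMSO tumor. Only 3 of the 6 reached 5 TPM. These 3 were lower by size, against 4.30% of all genes at that level. Cd2 and Trac reached it in the DMSO tumor only, so a call could only be lower. Ccr7 and Il7r, genes of naive T cells, stood at no more than 2.22 TPM in either tumor. The part of T cells in the Klf2 value was not tested.

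**Figure D4:**
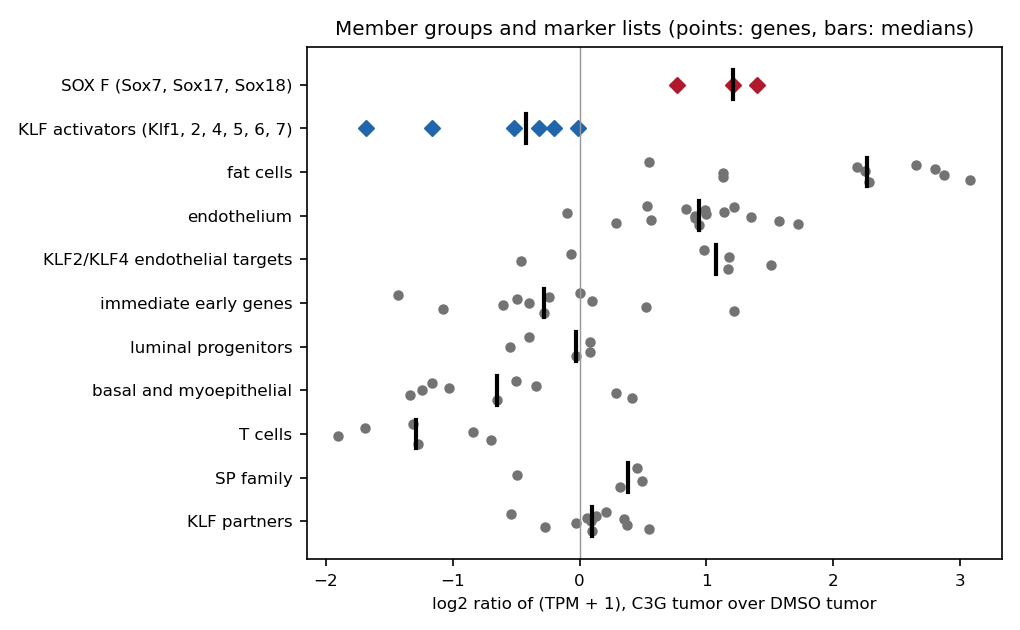
Points give the log2 ratio of (TPM + 1), C3G over DMSO, of each gene in a group or list, and bars the medians, for genes with a mean of at least 1 TPM. The 3 group F genes lie above 0, as do the endothelial markers except Flt1, while the 6 KLF activators lie below 0, between -1.68 and -0.01.

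Immediate early genes, among which Klf2, Klf4, Klf6 and Klf10 are often counted, went both ways. All 11 listed reached 5 TPM, with 7 log2 ratios below 0 and a median of -0.28. Of the 11, 2 were lower by size, against 4.30% of all genes at that level. They were Jun at 458.3 TPM in the C3G tumor and 1241 TPM in the DMSO tumor and Fosb at 343.6 and 727.8 TPM. Egr3 was higher by size, at 30.0 TPM in the C3G tumor and 12.3 TPM in the DMSO tumor. The share higher over all genes at that level was 3.10%. Fos stood at 2245 and 2964 TPM in the C3G and DMSO tumors and Egr1 at 559.4 and 680.3 TPM, and neither was called, nor were Atf3 at 332.0 and 502.8 TPM and Nr4a1 at 488.1 and 341.3 TPM. The list summed to 5784 TPM in the C3G tumor and 8116 TPM in the DMSO tumor, and its part in the Klf2 and Klf4 values was not tested.

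Sox14, a group B2 repressor best known from developing neurons, stood at 6.35 TPM in the C3G tumor and 20.9 TPM in the DMSO tumor, from 72 and 187 reads, 3.29-fold lower (2.50 to 4.38). No other annotated gene overlaps its exons. Its close relative Sox21 had 5 reads in the C3G library and 1 in the DMSO library. The group B1 genes Sox1, Sox2 and Sox3, factors of neural progenitors and, for Sox2, of pluripotent cells, had no read in either library, which at 3 reads allows up to 0.265 TPM for Sox2 in the C3G tumor and 0.336 TPM in the DMSO tumor.

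No gene of groups C or D was called. Sox4, an abundant factor of progenitor and tumor cells, stood at 86.3 TPM in the C3G tumor and 74.6 TPM in the DMSO tumor, a ratio of 1.16 (1.08 to 1.23), but shares 54.6% of its exon length with another annotated gene. Sox12 stood at 8.38 and 8.39 TPM in the C3G and DMSO tumors, a ratio of 0.998 (0.809 to 1.23). Sox11, the remaining member of group C and known from embryonic tissue, stood at 1.66 TPM in the C3G tumor and 3.16 TPM in the DMSO tumor, 1.90-fold lower (1.41 to 2.58) and under the level for a call.

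In group D, whose members lack an activation domain, Sox13 stood at 23.0 TPM in the C3G tumor and 30.0 TPM in the DMSO tumor, a ratio of 0.768 (0.681 to 0.865). Sox5 stood at 4.95 and 3.88 TPM and Sox6 at 2.16 and 2.43 TPM in the C3G and DMSO tumors. Sox15 and Sox30 had at most 2 reads in either library.

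**Figure D5:**
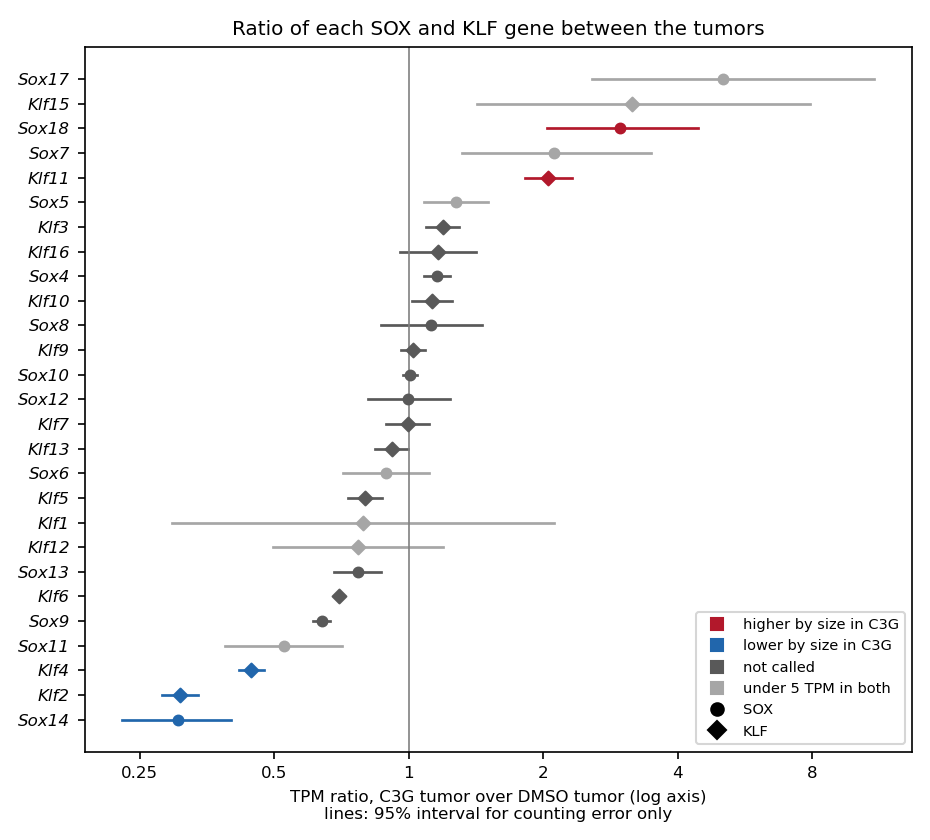
Points give the TPM ratio, C3G tumor over DMSO tumor, of the 27 members with a mean of at least 1 TPM on a log axis, with lines for the 95% interval from counting error only. Sox14, Klf2 and Klf4 lie lowest, while Sox17, Klf15, Sox18, Sox7 and Klf11 lie highest, 3 of these 5 from genes under 5 TPM in both tumors.

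The 14 members that reached 5 TPM without a call had ratios between 0.638 and 1.19. Counting error alone covered a ratio of 1 for 6 of them, while 3 intervals lay above 1 and 5 below. Of the 19 members at that level 63.2% had a log2 ratio within 0.5 of 0, against 73.0% of all genes at that level. Of the 17 members under it, 4 had no read in either library, 5 had a mean under 1 TPM and 8 had a mean of at least 1 TPM.

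The SP factors, the nearest relatives of the KLF family, and KLF partner proteins included no called gene. Of 9 SP genes 3 reached 5 TPM, Sp1 at 43.8 TPM in the C3G tumor and 30.8 TPM in the DMSO tumor, Sp3 at 47.5 and 38.0 TPM and Sp2 at 14.2 and 20.3 TPM. All 11 partner genes reached it. The corepressor gene Ctbp1 stood at 134.9 TPM in the C3G tumor and 116.2 TPM in the DMSO tumor and Sin3a at 29.4 and 28.2 TPM. The largest log2 ratios of the list were those of the acetyltransferase gene Kat2b (49.5 TPM in the C3G tumor and 33.5 TPM in the DMSO tumor) and of Fbxw7, a ubiquitin ligase subunit that targets KLF proteins (36.5 and 53.6 TPM).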

How the data were processed

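RNA was measured in 1 tumor library per group. Per the labels' protocols, RNeasy Plus kits gave the RNA and TruSeq RNA kit v2 the libraries. That kit does not mark strand, so reads of overlapping genes are ambiguous. Trimmomatic 0.38 and featureCounts 2.0.0 were used with mouse build mm10, per the submitters' processing notes. No aligner is named there. The authors deposited TPM values, 1 column per library, each summing to 1000000.

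All 55536 identifiers matched GENCODE M21, which gave symbols, positions and exon-union lengths. TPM times length was a whole multiple of 1 step for 100% of values above 0, within 0.01 of a step, and 1 step was taken as 1 read. Reads gave the exact conditional 95% intervals and the floor of 3 reads. Intervals and floors cover counting error only. No count test was run, and no p-value was computed. Log2 ratios used a pseudocount of 1 TPM, which understates the change of low genes.

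Python 3.11.15 with numpy, pandas and scipy was used, and the steps were tested on simulated data. Genes were named by a rule: each member with at least 5 TPM in either tumor, and of each list the called genes and up to 4 with the largest log2 ratio at that level. The members, lists and rule were chosen with earlier results of these data known. Genes outside the rule were named after their values were seen. Further lists covered red blood cell, cornified, pluripotency, fibroblast and macrophage genes. Alternatives were a pseudocount of 0.1 or 5, no filter, a stricter filter (20 TPM for calls, a mean of 5 TPM for medians), centring, rescaling without mitochondrial and the 50 most abundant genes, removal of the trend with gene length, thinning to equal depth and a minimum of 50 reads.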

Additional observations from a re-analysis of the deposited data

How the results depend on the processing

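Klf2, Klf4 and Sox14 were lower by size under the main setting and under all 9 alternatives. No filter, the stricter filter and the minimum of 50 reads leave every log2 ratio unchanged. Those settings only decide which genes can be called, so they are no check on these ratios. Sox14 passed the stricter filter only through its 20.9 TPM in the DMSO tumor. Of the members higher by size, Klf11 and Sox18, the count was 0 with a pseudocount of 5 (Sox18 at a log2 ratio of 0.99) and 1 with the stricter filter (Klf11), with centring (Sox18) and with the length trend removed (Sox18). For Klf11 the log2 ratio was 1.00 in the main setting and 0.86 with the length trend removed. Over all genes, 396 were higher and 550 lower, or 179 and 309 with a pseudocount of 5, 1086 and 1218 with no filter, 109 and 241 with the stricter filter, and 218 and 312 with at least 50 reads. Upward calls made up 41.9% of calls in the main setting, 31.1% with the stricter filter and 31.0% with centring. With centring the median log2 ratios became -0.12 for the members, -0.11 for SOX, -0.18 for KLF and -0.02 for all genes. With the length trend removed they were -0.14, -0.10, -0.20 and -0.01 in the same order. Rescaling without the most abundant genes gave -0.00 for KLF. Klf9, Sox10 and Sox12 changed sign around 0 across the alternatives, and no called member did. The cause of these shifts was not tested. No paired analysis was possible because each group holds 1 library. Precision is limited for members with few reads, as for Sox17 with 64 and 10 reads and Klf15 with 32 and 8.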

Other observations

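Of 8 red blood cell genes 7 matched the table and none was called, with the globin gene Hbb-bs at 77.5 TPM in the C3G tumor and 81.4 TPM in the DMSO tumor and Hba-a1 at 31.6 and 48.9 TPM. Of the 5 with a mean of at least 1 TPM, 4 had log2 ratios below 0. The other was Alas2, at 5.30 TPM in the C3G tumor and 2.78 TPM in the DMSO tumor, a ratio of 1.90 (1.22 to 3.05). None of 6 fibroblast and none of 5 macrophage genes was called. Col1a1 stood at 403.9 TPM in the C3G tumor and 587.2 TPM in the DMSO tumor, and the macrophage gene Cd163 at 8.83 and 4.90 TPM. Of 8 cornified genes, which KLF4 is known to control in skin, 5 stayed under 5 TPM. Of the 3 others 1 was lower by size, against 4.30% of all genes at that level. That gene was Sprr1a, a cornified envelope protein gene, at 3.61 TPM in the C3G tumor and 31.8 TPM in the DMSO tumor, from 16 and 111 reads, 8.79-fold lower. The list summed to 31.6 TPM in the C3G tumor and 61.0 TPM in the DMSO tumor, and Sprr1a made most of that difference. Krt10 stood at 5.25 TPM in the C3G tumor and 8.29 TPM in the DMSO tumor. Ivl had no read in the C3G library and 2 in the DMSO library. Lor had 8 reads in the C3G library and none in the DMSO library, and Krt1 had 8 and 1. The part of Klf4 in these values was not tested. The transglutaminase gene Tgm1 stood at 21.5 TPM in the C3G tumor and 20.5 TPM in the DMSO tumor. The 5 pluripotency genes all stayed under 1 TPM.

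Noncoding loci named after SOX genes were low. Sox6os, annotated antisense to Sox6, had 5 reads in the C3G library and none in the DMSO library, and Sox5os4 had 2 reads and none. Reads of these loci cannot be assigned to a strand in libraries of this kind.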
